A study of Mus musculus with 4 samples.

Results

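The genes described here are enzymes and subunits of metabolic pathways not annotated to the mitochondrion or its inner membrane. They were read in a map of N6-methyladenosine (m6A) sites of newborn mouse epidermis. A gene was a member if it had at least 1 site in either of 2 deposited site lists, if its KEGG annotation there held the term Metabolic pathways, and if its cellular component annotation held neither the mitochondrion nor the mitochondrial inner membrane. The barrier genes Ugcg, Alox12b, Aloxe3 and Cers3 and the pigment genes Tyr, Tyrp1 and Dct were left out by name, and 4 of them would otherwise have entered. This gave 260 members of the 6625 genes with a site. Of these members, 3 had no cellular component annotation and 2 carried another mitochondrial term. The KEGG term was carried by 377 genes, of which 113 had a mitochondrial annotation that the rule excludes.

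The site lists come from methylated RNA immunoprecipitation sequencing (MeRIP-seq), in which fragments bound by an antibody against m6A (IP) are sequenced beside unselected fragments (input). There were 2 IP libraries and 2 input libraries, all from untreated keratinocytes of the epidermis of control pups (postnatal day 0, genotype K14Cre, Mettl14 F/+). In these mice Cre is driven by the keratin 14 promoter, which is active in basal keratinocytes, and 1 allele of Mettl14, which encodes a subunit of the m6A methyltransferase, is floxed. The controls therefore carry the transgene and an allele that Cre can recombine. Mutant libraries were not analysed here, and the labels leave unsaid if replicates were separate animals. Each of 2 samples has its own list, called list 1 and list 2 here, and which replicate gave which list is not stated. The lists hold no value per library, so depth is unknown, no site can be tested against the spread between replicates, and all that follows is a description without p-values over genes.

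The methyl mark is placed on nascent messenger RNA by a complex of METTL3 and METTL14, mostly at short motifs around the sequence GGAC, and proteins that bind it affect splicing, translation and decay of the transcript. Enzymes outside mitochondria run glycolysis and the pentose phosphate pathway in the cytosol, sterol and phospholipid synthesis and the first steps of glycosylation in the endoplasmic reticulum, and the trimming and extension of glycans in the Golgi apparatus. Proliferating basal keratinocytes need nucleotides and membrane lipids, and differentiating ones make the cholesterol and ceramides of the skin barrier.

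The members were chosen by having a site, which is therefore no finding. Of the 260 members, 85 had a site in both lists (32.7%, 95% Wilson interval 27.3 to 38.6), against 2607 of all 6625 genes (39.4%). Another 74 members had sites in list 1 alone and 101 in list 2 alone, against 1580 and 2438 of all genes. List 2 is the larger list, with 8246 sites over all genes against 6038 in list 1. At least 1 pair of sites shared a base between the lists in 59 members (22.7%, 18 to 28.2), against 1803 of all genes (27.2%). With sites of a score (-10 log10 p) of 50 or more, 56 of 203 members were in both lists (27.6%), against 34.6% of all genes. With all sites, the interval of the first share lies below the value of all genes and that of the overlapping share includes it. Among metabolic genes with a mitochondrial annotation, 27 of 113 were in both lists (23.9%, 17.0 to 32.5) and 24 had an overlapping site (21.2%). These intervals cover counting error over genes only. The share in both lists also moved with gene length: 33 of 66 members spanning more than 58263 bases were in both lists (50%), against 25 of 93 members under 20309 bases (26.9%), and over all genes the shares were 50.7% and 29.0%. Between these lengths the share was 26.7% (27 of 101 members), against 38.6% of all genes, the widest gap of the 3 length classes. Long genes made up 25.4% of the members and 32.4% of all genes, and the part of gene length in the lower share of members was not tested.

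The median of the highest fold per gene was somewhat lower in members than in all genes, and scores of members reached the same range. The authors gave each site a fold enrichment, its IP signal divided by input, and a score, -10 log10 of its p-value, and both serve here only to describe and rank. The median over members of the highest fold per gene was 11.5 in list 1, with the central 50% between 4.78 and 40.5, and 10.5 in list 2, between 4.01 and 31.9. Over all genes with a site in that list it was 13.9 (4.78 to 56.5) and 14.1 (4.94 to 56.1). Taken over single sites, the median fold of members was 12.1 in list 1, above the 11.6 of all sites, and 9.41 in list 2, below 11.9. A score of 50 or more was reached by 74.1% of the 205 member sites of list 1 and 78.8% of the 250 of list 2, against 73.7% and 76.9% of all sites. The authors' false discovery rate stood at 100% for 57.1% of member sites in list 1 and 56.0% in list 2, against 59.2% and 51.5% of all sites, and it was 55.8% in list 1 and 59.5% in list 2 even at sites with a score of 3100. Many sites named below are thus weak by the caller's own measure. No more than 1 site was held by 78.6% of the members of list 1 and 76.3% of those of list 2, against 72.6% and 65.6% of all genes. The lists carry no expression values. A site needs the RNA to be present, and in bulk tissue fewer cells of a type and less RNA per cell cannot be told apart.

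**Figure D1:**
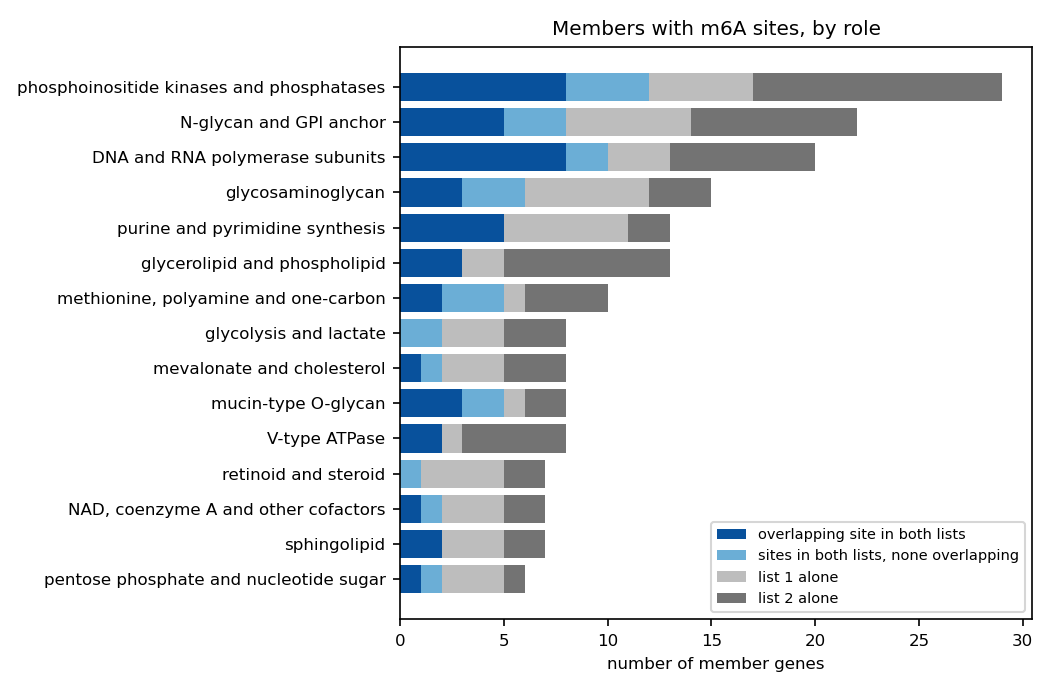
Number of member genes (x axis) in each of the role lists with at least 6 members (y axis), split by colour into genes with an overlapping site in both lists, genes with sites in both lists that do not overlap, and genes in list 1 alone or list 2 alone. Phosphoinositide enzymes and polymerase subunits each have 8 genes with an overlapping site, and the shares are read against 27.2% of all genes with a site.

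The highest sites shared by both lists were in genes of nucleotide synthesis and glycosylation and in polymerase subunits. Cad, the enzyme that carries out the first steps of pyrimidine synthesis, had the same interval in both lists, chr5:31061117-31061350, with a fold of 303 in list 1 and 579 in list 2. Polr3g, a subunit of RNA polymerase III, had a site at chr13:81682112-81682136 with 189 in list 1 and 396 in list 2. Galnt4, which starts mucin-type O-glycans, had 227 in list 1 at chr10:99109019-99109399 and 155 in list 2 at chr10:99109013-99109394. These 3 sites carried a score of 3100 in both lists, a value that 50 member sites of each list reached or passed. The Galnt4 site also lies in the annotated span of Poc1b, and reads of overlapping genes cannot be told apart without strand. Beyond the rule given for named genes, members that complete a pathway below were chosen after their values were seen. Counts of members by role are to be read against the shares of all genes, 39.4% in both lists and 27.2% with an overlapping site. Counts in a single list are to be read against 1580 of all 6625 genes in list 1 alone and 2438 in list 2 alone. The role lists are small, and no difference between them was tested.

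Purine and pyrimidine synthesis had 13 members, of which 5 had an overlapping site, 6 were in list 1 alone and 2 in list 2 alone. A further 20 of the 36 genes of this list had no site, among them Paics, Atic, Umps and Tyms. Ppat, the enzyme of the first committed step of purine synthesis, had closely matched folds of 26.5 in list 1 and 25.3 in list 2 at sites sharing 200 bases. Rrm1 and Rrm2 encode the large and small subunits of ribonucleotide reductase, which makes deoxynucleotides. Rrm1 had 33.6 in list 1 and 6.04 in list 2 at a shared stretch of 13 bases, and Rrm2 had 7.42 and 10.28 at sites that start on the same base. So the subunits differ in which list holds the higher value. Nme7, of the nucleoside diphosphate kinase family, had 251 in list 1 and 32.2 in list 2 over the same 285 bases, but this interval also lies in the span of Atp1b1, which encodes a sodium pump subunit. Sites in list 1 alone were held by Ctps, the CTP synthase gene (36.5), and by the salvage gene Hprt (42.7 and 20.15 at separate sites). Aprt, the other purine salvage transferase, had its site in list 2 alone (4.32). The only member of the list of nucleotide breakdown and cyclic nucleotides was Ampd2, an AMP deaminase, with 113 in list 2 alone. A further 23 of the 54 genes of that list had a site but were not members, 22 of them for lack of the KEGG term.

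Among DNA and RNA polymerase subunits 20 of 41 genes were members, 10 were in both lists (50%, against 39.4% of all genes) and 8 had an overlapping site (against 27.2% of all genes). Pole, the catalytic subunit of the leading strand DNA polymerase, had 237 in list 1 and 33.2 in list 2 over the same 93 bases. Pole3, a small subunit of that enzyme, had 5.07 in list 1 and 10.7 in list 2. Pola1, which carries the catalytic activity of DNA polymerase alpha, had overlapping sites that went opposite ways, with 27.1 against 13.35 at one and 7.12 against 26.99 at the other, list 1 first. Its partners Pola2 and Prim2 had sites in list 2 alone, with highest folds of 27.2 and 45.9. For RNA polymerase I, Polr1b had 68.2 in list 1 and 51.4 in list 2, while the catalytic subunit gene Polr1a had sites in both lists that lay 185 bases apart (highest fold 7.68 and 47.4). For RNA polymerase III, Polr3d had 77.06 and 15.2, and Polr3g had a second overlapping site of 3.78 in list 1 and 6.62 in list 2. None of the members encoding RNA polymerase II subunits had an overlapping site: Polr2b was in list 1 alone (18.3), Polr2a, Polr2d and Polr2e in list 2 alone (4.34, 83.5 and 6.57), and Polr2g had 6.48 in list 1 and 38.6 in list 2 at sites 897 bases apart. Several other polymerase genes carried no site in either list, Prim1, Pold1 and Polr3b among them.

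Enzymes that make or use the methyl donor S-adenosylmethionine included the member with the most overlapping sites. Dnmt1, the maintenance DNA methyltransferase, had 5 sites in each list, and 3 of them overlapped. At chr9:20927107-20927171 the fold was 58.3 in list 1 and 130.5 in list 2, at the site starting at base 20929048 it was 54.6 and 36.2, and at the one starting at 20930125 it was 38.2 and 6.81. The sites found in a single list reached 91.5 in list 1 and 134 in list 2, so strong sites of Dnmt1 were not all shared. Dnmt3a, a de novo DNA methyltransferase, had sites in list 2 alone (9.84 and 8.64), as had Mat2a, the S-adenosylmethionine synthetase of most tissues (10.7 and 7.36). Mat1a, the synthetase known from liver, had 3.19 in list 1 and 2.67 in list 2, values shared by many weak sites as described further on. Ahcyl2, related to the hydrolase that clears S-adenosylhomocysteine, had 16.8 and 3.46 at overlapping sites. Of the 26 genes of this list 15 had no site, including Odc1, Amd1 and Srm of polyamine synthesis, and 5 of its 10 members were in both lists.

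The glycan classes of KEGG held 57 members, 19 in both lists (33.3%) and 11 with an overlapping site. In the synthesis of N-glycans, Alg9, a mannosyltransferase of the endoplasmic reticulum, had 76.3 in list 1 and 90.2 in list 2 at a site of only 3 to 4 bases that begins at chr9:50779101 or 1 base later. Stt3a, a catalytic subunit of the oligosaccharyltransferase, had 32.5 in list 1 and 15.4 in list 2 over the same interval, chr9:36735353-36735541. Mgat2, a Golgi transferase that opens the way to complex N-glycans, had close values of 30.8 and 34.9 at sites that start on the same base, chr12:69185371. Other Golgi steps were split between the lists. The mannosidase gene Man1a was in list 1 alone (269 and 20.3), Fut8, which adds core fucose, was in list 1 alone (53.2), B4galt1, which adds galactose, was in list 2 alone (70.48), and the branching gene Mgat5 had 56.5 in list 1 and 14.9 in list 2 at sites 91648 bases apart. In the pathway of the GPI anchor, which holds proteins on the outer membrane face, Pigt of the transamidase had weak overlapping sites (3.13 and 3.33), and Pgap1, which remodels the finished anchor, had 248 in list 2 alone.

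The GALNT enzymes add the first sugar of mucin-type O-glycans, and 5 of the 8 members of that list were in both lists. After Galnt4, the overlapping sites were in Galnt1, with 39.3 in list 1 and 2.31 in list 2, and in Galnt16, with 3.19 and 10.68. Galnt2 and Galnt7 had sites in both lists at different places, and Galnt12 had 114 in list 2 alone. Genes that had no site included Galnt3 and C1galt1, which extends the first sugar.

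Glycosaminoglycan enzymes make and break the chains of proteoglycans, and 15 of the 56 listed genes were members, 3 with an overlapping site. Chsy1, a chondroitin synthase, carried 30.3 in list 1 at chr7:66171421-66171835 and 40.2 in list 2 at chr7:66171511-66171886. Glce, the epimerase of heparan sulphate, had 40.6 in list 1 and 5.62 in list 2 at sites sharing 181 bases. Ext1, a subunit of the heparan sulphate polymerase, had 10.41 and 13.6 at overlapping sites. Its partner Ext2 was in list 1 alone (65.6). Extl3, related to both, had highest folds of 11.5 in list 1 and 224 in list 2, and its nearest sites of the lists were 2372 bases apart. Csgalnact1, which starts chondroitin chains, had 157 in list 1 alone, and Hpse, the heparanase that cuts heparan sulphate, had 666 in list 2 alone at chr5:100692885-100692904. The hyaluronan synthase genes Has1 and Has2 had no site. Their relative Has3 was among 10 listed genes that had a site but lacked the KEGG term, and so were not members.

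Phosphoinositide enzymes add and remove phosphates on membrane inositol lipids and soluble inositol phosphates, and with 29 members they were the largest of the role lists. In this list 12 members were in both lists, 8 had an overlapping site, 5 were in list 1 alone and 12 in list 2 alone. The highest lower fold at an overlapping site was 8.53, in Mtmr7, a member of the myotubularin phosphatase family (15.9 in list 1 and 8.53 in list 2). Mtmr4 had 21.9 and 6.72. Pip5k1c, which makes the lipid cleaved by phospholipase C, had 3.75 and 6.43 at its overlapping site, and a separate site of 126 in list 2. Pik3c2a, a class II phosphoinositide 3-kinase, had 5 sites in list 1 (3.19, 10.49, 15.0, 19.9 and 35.6) and 2 in list 2 (12.02 and 4.01). Only the weakest of the list 1 sites overlapped, near the start of the gene at chr7:116442591-116442678. Mtmr1 had 4 sites in list 2 (2.67, 7.08, 7.34 and 40.6) and none in list 1. Ocrl, the phosphatase gene mutated in Lowe syndrome, had 362 and 13.3 in list 1 and no site in list 2. Of the kinases that act on soluble inositol phosphates, Itpk1 and Ippk had weak overlapping sites (2.72 and 2.12 in Itpk1, 4.78 and 2.65 in Ippk), and Ipmk and Itpkc were in list 2 alone (21.5 and 15.8). The Itpkc site also lies in the span of another gene, BC024978.

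**Figure D2:**
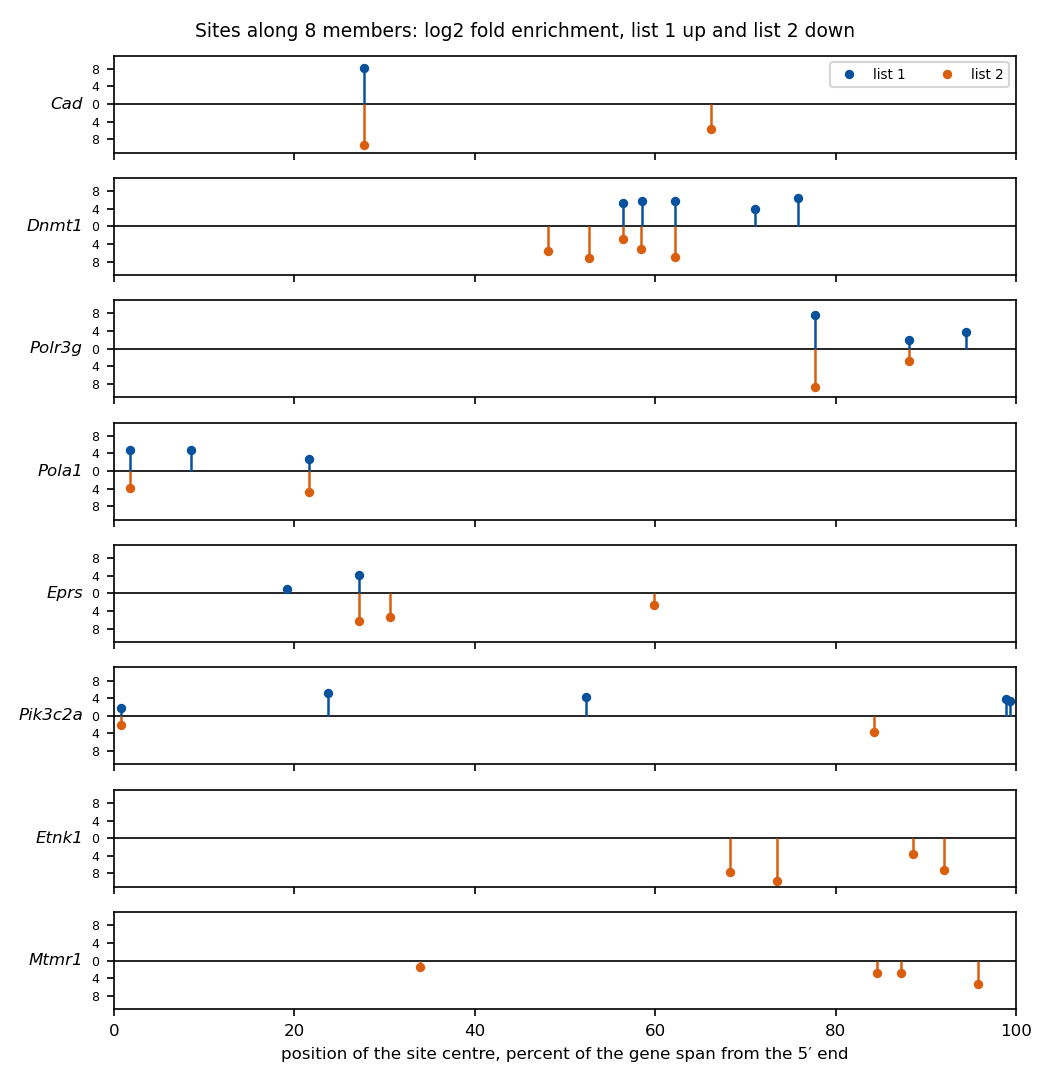
Site positions along 8 members with several or strong sites (x axis, percent of the gene span from its 5′ end), with log2 fold enrichment drawn upward for list 1 and downward for list 2 (y axis). Dnmt1 has 3 positions shared by both lists and Pik3c2a has 1, while Etnk1 and Mtmr1 have 4 sites each in list 2 and none in list 1.

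Of 55 lipid enzymes of KEGG 11 had sites in both lists (20%), beside 16 of 38 members of the nucleotide class (42.1%) and 39.4% of all genes, and 9 had an overlapping site. The difference between these classes was not tested. In phospholipid synthesis, Etnk1, which phosphorylates ethanolamine, had the highest fold of any member in list 2, 859 at chr6:143197405-143197565, with 3 further sites of 12.7, 142 and 195, and no site in list 1. Pld1, a phospholipase D, had 57.4 in list 1 and 70.8 in list 2 over the same interval, chr3:28099660-28099748. Dgkz, a diacylglycerol kinase, had 21.2 in list 1 and 13.7 in list 2. Agpat4, which acylates lysophosphatidic acid, had 3.19 in list 1 and 2.67 in list 2 at overlapping sites and 3.97 at another site of list 2. The remaining 10 members of the glycerolipid and phospholipid list were each in a single list, 8 of them in list 2. Pafah2, which inactivates platelet-activating factor, had 321 in list 1 alone, and Pla2g7, the secreted enzyme of the same function, had 7.97 and 13.35 at overlapping sites. Acsbg1, an acyl-CoA synthetase, had 46.0 in list 1 and 2.74 in list 2.

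Cholesterol synthesis starts from the mevalonate pathway, and 8 of its 23 listed genes were members. Hmgcs1, which makes HMG-CoA, and Sqle, the epoxidase of squalene, were in list 1 alone (16.1 and 13.75). Fdft1, the squalene synthase, had the overlapping site of this list, 9.89 in list 1 and 3.8 in list 2. Lss and Nsdhl of the later steps were in list 2 alone (6.14 and 2.07), and Hsd17b7 had 5.21 in list 1 and 6.44 in list 2 at sites 3729 bases or more apart. The list also contains 13 genes with no site, including Cyp51, Msmo1 and Dhcr7.

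Sphingolipid enzymes supply the ceramides and sphingomyelin of keratinocyte membranes, and 7 of 34 listed genes were members, 2 in both lists. Sgms1, a sphingomyelin synthase, carried sites of 9.56 in list 1 and 10.68 in list 2 at an annotated start of the gene that is not its outermost one, and 3 further sites in list 2, the highest of 23.4. Ugt8a, known for galactosylceramide synthesis in myelin, had 3.19 and 2.67. Sphk2, a sphingosine kinase, and Cers4, a ceramide synthase, were in list 1 alone (15.2 and 5.69), and the ceramidase gene Acer2 was in list 2 alone (8.72). All 3 serine palmitoyltransferase genes of the list, Sptlc1, Sptlc2 and Sptlc3, had no site. Of the 15 members with the KEGG term arachidonic acid metabolism 1 was in both lists, the cytochrome P450 gene Cyp4a30b (6.38 and 6.68), whose values are uncertain because reads of its close relatives cannot be told apart here. The 3 members of the eicosanoid list had modest folds in a single list: Alox8 had 3.19 in list 1, Alox12 had 6.04 in list 2, and Lta4h, which makes leukotriene B4, had up to 9.48 in list 2.

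Glycolysis had 8 members of 27 listed genes, and none had an overlapping site, against 27.2% of all genes. The 2 in both lists were Pfkl, which encodes a phosphofructokinase subunit (38.3 and 40.4 in list 1, 2.56 and 2.15 in list 2), and Eno1, an enolase gene (9.12 in list 1 and 4.76 in list 2, 4004 bases apart). Pgk1 and Tpi1 were in list 2 alone, with highest folds of 9.77 and 2.26, and Gpi1 was in list 1 alone (5.67). Pfkp, another phosphofructokinase subunit, had 3 sites in list 2 (14.4, 52.7 and 80.9). Gapdh, Aldoa, Pgam1 and Pkm had no site, although these enzymes are usually abundant. A further 3 listed genes, Hk2, Ldha and Ldhb, had a site but a mitochondrial annotation, and so were not members. Outside this list, Ldhc, the lactate dehydrogenase known from testis, had overlapping sites at its start (14.4 in list 1 and 20.03 in list 2). Galm, which interconverts the anomers of galactose, had 9.16 and 4.62 at overlapping sites. Both genes carry the wider KEGG term of glycolysis and gluconeogenesis, which held 15 members, 5 in both lists and 2 with an overlapping site. Pygb, a glycogen phosphorylase, had 97.9 and 171 in list 1 and 12.6 in list 2 at another place.

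The pathway to sialic acid was covered in list 1. Gne, its first enzyme, had 667 at chr4:44059812-44060154 in list 1 and no site in list 2, and Nans, the synthase, had 25.8, 36.2 and 65.3 in list 1 and none in list 2. Nanp, the phosphatase that follows, had an overlapping site, 23.2 in list 1 and 37.2 in list 2, and Cmas, which activates the sugar, had no site. In the pentose phosphate pathway Rpia, the ribose phosphate isomerase, had 242 in list 2 alone, while G6pdx, Pgd, Tkt and Taldo1 had no site. Prps1, which makes the activated ribose for nucleotides, had weak sites of 3.18 in list 1 and 2.45 in list 2.

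The role lists of cofactor synthesis, of retinoid and steroid metabolism and of the proton pump held 7, 7 and 8 members. Alad, of haem synthesis, had 13.5 in list 1 and 2.25 in list 2 at overlapping sites and 45.02 at another site of list 2. Pank3, which starts coenzyme A synthesis, had 143 in list 1 and 33.8 in list 2 at sites 9190 bases apart. Among retinoid enzymes, Dhrs3, which reduces retinal, was in list 1 alone (44.7, at a site that also lies in the span of Vps13d). Outside these role lists, Adh7, an alcohol dehydrogenase that acts on retinol, was in list 2 alone (244). Aox4, an aldehyde oxidase also outside them, had 3 sites in list 1 (18.7, 18.9 and 30.3) and none in list 2. Of the 12 members with the KEGG term retinol metabolism 1 was in both lists. In the V-type ATPase, which acidifies lysosomes, Atp6v1f had 13.8 and 14.7 at its start. Atp6v0c had 153 in list 1 and 11.35 in list 2 at overlapping sites that the lists place on chromosome 6, from chr6:37806772-37807072 in list 1, whereas RefSeq places the gene on chromosome 17, so the assignment of these sites to Atp6v0c is uncertain. A weaker site of list 1 (2.82) lies in the gene on chromosome 17.

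Not every member is a metabolic enzyme. Lama3 and Lama5 encode laminin chains of the basement membrane and Rev3l encodes the catalytic subunit of a translesion DNA polymerase, and the deposited term placed them among the members without any of the more detailed metabolic classes used here. All 3 had an overlapping site. Rev3l had 139.85 in list 1 at chr10:39821653-39822400 and 243 in list 2 at chr10:39821653-39822568, the longest member site in each list with 748 and 916 bases. Lama3 had 2 sites in list 1 and 6 in list 2. Its highest fold was 43.3 in list 1 and 298 in list 2, and the site of 298 had no counterpart in list 1. Lama5 had 2.57 and 4.6 at a shared interval and 109 at a second site of list 2. Eprs, which charges transfer RNA with glutamate and proline, had 18.8 in list 1 and 70.3 in list 2 over the same 193 bases.

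Some of the highest folds stood in a single list. Besides those already given, A4galt, which makes the globoside precursor Gb3, had 496 and the chitinase gene Chit1 had 289 in list 1 alone, and 4930438A08Rik had 206 in list 2 alone. The highest fold of any member in list 1 was 788, in Phospho2, which encodes a phosphatase and was named after its value was seen. Its other list 1 site (11.4) and its site in list 2 (33.9) lay 17 bases apart. Of the members in both lists 69.4% had an overlapping site, against 69.2% of all genes in both lists. For the other 26 members, the nearest sites of the lists were a median of 6656 bases apart, and 5 members had them within 1000 bases.

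Where both lists had the same site, the folds were related but loose. Over 64 pairs of overlapping member sites the correlation of log2 fold across sites was 0.65 (Pearson) and 0.64 (Spearman), against 0.56 and 0.53 over all 2222 pairs. Over pairs with a score of at least 50 in both lists the order was the other way, with 0.51 and 0.48 for members against 0.59 and 0.54 for all genes. The points share the 4 libraries, the caller and the base composition of the site, and are not independent. The difference of log2 fold, list 1 minus list 2, had a median of 0.26 over member pairs (quartiles -0.42 and 1.46) and 0.09 over all pairs (-0.80 and 1.09). Of the member pairs, 38 lay within 2-fold of each other (59.4%, against 51.6% of all pairs) and 14 differed by more than 4-fold (21.9%, against 25.1%). Of these, Ggt6, a gamma-glutamyltransferase family gene (66.0 in list 1 and 2.45 in list 2), Atp6v0c, Nme7 and Glce were far higher in list 1. Closely matched pairs with a score of at least 50 in both lists were those of Ppat, Cyp4a30b, Atp6v1f, Mgat2, Alg9, Pld1, Ext1 and Chsy1. Both folds of Cyp4a30b are values that recur across genes, as described further on, so its close match carries little weight. The interval was the same to the base in 35.9% of member pairs, against 31.6% of all pairs, and the false discovery rate was 100% in both lists in 42.2%, against 42.8%.

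**Figure D3:**
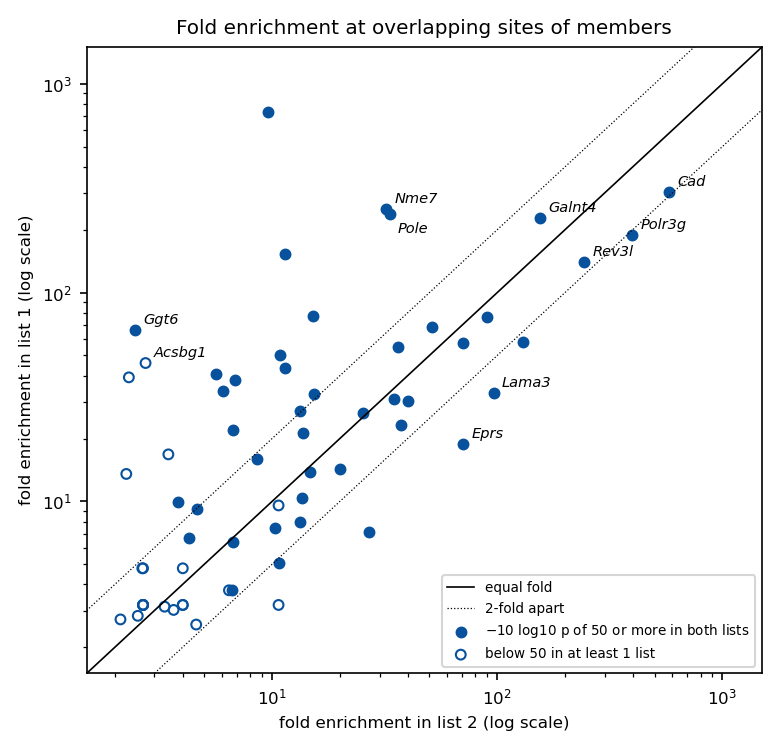
Fold enrichment of the 64 pairs of overlapping member sites in list 1 (y axis, log scale) and list 2 (x axis, log scale), with filled points for a score of at least 50 in both lists. The line marks equal folds, the dotted lines mark 2-fold differences and hold 38 pairs between them, and Ggt6 lies well above the line with 66.0 in list 1 and 2.45 in list 2.

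Certain fold values recurred across unrelated genes. In list 1 a fold of exactly 3.19 occurred at 19 member sites (9.27%) and 557 of all sites (9.22%), and a fold of 4.78 at 12 member sites (5.85%) and 216 of all (3.58%). In list 2 a fold of 2.67 occurred at 15 member sites (6.0%) and 592 of all (7.18%). At these 3 values the false discovery rate was always 100%. Overlapping sites with 3.19 in list 1 and 2.67 in list 2 were found in Agpat4, Mat1a, Rimklb and Ugt8a, and over all genes in 59 pairs. In 9 member pairs the fold was 1 of the 5 most frequent values in both lists. Cyp4a30b was among them, with 6.38 (105 of all list 1 sites) and 6.68 (100 of all list 2 sites). Such pairs count as shared, but their folds do not rank their genes. Recurring values also stand in 1 list of other pairs, such as the list 1 folds of Pla2g7 (7.97, at 69 of all sites) and Sgms1 (9.56, at 46).

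Sites of members, like those of all genes, were most frequent toward the end of the gene. The gene strand and span were known from RefSeq for 155 of the 205 member sites of list 1 and 199 of the 250 of list 2. The last 25% of the gene span held 45.8% and 46.2% of these, against 44.0% and 43.6% over all genes. Within 1000 bases of the gene end lay 16.8% of member sites in list 1 and 13.1% in list 2, against 11% and 9.97% of all sites, and within 1000 bases of the start 11% and 12.1%, against 10% and 8.31%. Members were on the whole shorter genes, with a median span of 28895.5 bases against 34000 bases, and the part of gene length in these shares was not tested. Exon annotation was not used here, so whether a site lies in a coding exon or a UTR is not given. The first 1000 bases of the gene held 17 member sites in list 1 and 24 in list 2, and 10 of them in each list overlapped a site of the other list (58.8% and 41.7%, against 41.5% and 36.8% over all genes). In the last 1000 bases 4 of 26 member sites overlapped in each list (15.4%, against 27.8% and 22.5%). Median folds were low at both ends: 4.78 in list 1 and 5.29 in list 2 in the first 1000 bases and 5.28 and 5.6 in the last, against 15.1 and 9.84 for member sites in between. Over all genes the same order held in each list, with 6.38 and 5.68 at the start, 7.97 and 7.03 at the end and 14.1 and 13.7 in between.

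**Figure D4:**
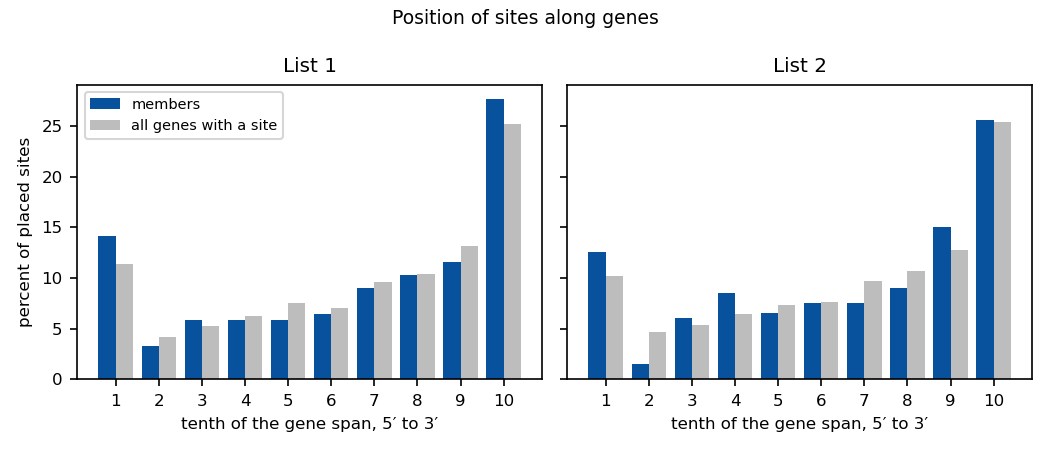
Percent of placed sites (y axis) in 10 equal bins of the gene span from 5′ to 3′ (x axis), for members and for all genes with a site, in list 1 and in list 2. In both lists the last bin holds the most sites in members and in all genes, and the last 25% of the span holds 45.8% and 46.2% of member sites.

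At the very start of genes the sequence under a site could be read from RefSeq promoter windows of GRCm38.p6, which run from 250 bases before to 50 bases after an annotated start and matched 207 members. In 16 members 23 sites reached such a window, and in 7 of these members sites of both lists did so (Atp6v1f, Galnt16, Ggt6, Itpk1, Ldhc, Rimklb and Sgms1). In 12 of the 16 a site began within 10 bases of an annotated start. The stretches of list 1 sites that lie in the window and hold GGAC are shown for the 4 members with such a site in both lists, 5′ to 3′ on the gene strand, with GGAC in capitals. They are Atp6v1f at chr6:29467754-29467832 (plus strand), Itpk1 at chr12:102704820-102704929 (minus strand), Ldhc at chr7:46861205-46861301 (plus strand) and a piece of Sgms1 at chr19:32388470-32388499 (minus strand).
Atp6v1f: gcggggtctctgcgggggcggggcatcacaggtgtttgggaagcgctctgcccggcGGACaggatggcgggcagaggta
Itpk1: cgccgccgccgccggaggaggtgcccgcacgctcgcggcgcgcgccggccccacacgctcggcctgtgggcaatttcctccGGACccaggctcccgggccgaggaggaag
Ldhc: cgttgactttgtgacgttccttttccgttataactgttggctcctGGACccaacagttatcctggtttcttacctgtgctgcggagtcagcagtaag
Sgms1: ccggctccgccgcGGACtgggcatgctcgg
The motif searched was GGAC on the gene strand, and it was present in the stretch under a site in 5 of the 16 members, the fifth being Polr2e in list 2. In Ldhc the GGAC lies upstream of the annotated gene start, base 46861263, and so outside the annotated transcript. In Atp6v1f, Itpk1, Sgms1 and Polr2e it lies downstream of an annotated start. Of all 32851 windows, 65.6% hold GGAC somewhere on the gene strand. In the same stretch as the printed ones it occurs in 26.7% of windows for Atp6v1f, 34.4% for Itpk1 and 30.4% for Ldhc. For Sgms1 it occurs in 18.9% of windows, over the whole stretch of 50 bases from which the printed piece was taken. The match is a description of these letters and not a mapped m6A base. The sites differ in strength. The one of Atp6v1f had a score of 3100 in both lists, Ldhc had 145 in list 1 and 265 in list 2, Sgms1 had 43.6 and 87.9, and Itpk1 had 10.01 and 4.5.

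As a check of the labelled cell type, sites were found in 7 of 11 keratinocyte markers (5 in both lists), while Krt14, Krt15, Krt1 and Krt10 had none. The same held for 7 of 8 fibroblast markers (4 in both lists), 4 of 7 melanocyte markers and 3 of 5 endothelial markers, and for 1 of 4 immune markers and 2 of 5 of muscle and nerve. A missing site does not show that the RNA was absent. Markers of other cell types thus carried sites beside the keratinocyte markers, and which cells the sites of a member came from was not tested.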

How the data were processed

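MeRIP-seq of 2 input and 2 IP libraries was deposited as 2 lists of methylated mRNA sites, made by the authors. Peaks were named after MACS, per the deposited lists, and lie on GRCm38, per the submitters' processing notes. Not given in the sources used here are the aligner, the settings and version of the caller, filters, annotation and any pooling. Fold is the deposited ratio of IP to input, at least 2 throughout. The score holds -10 log10 of a p-value, per the file headers, and the authors gave the false discovery rate in percent. Depth per library is unknown, since no counts were used, and the precision of a single fold cannot be given.

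Members and gene lists were chosen with earlier results of these data known. From the lists, members were taken by their KEGG and cellular component terms, 1 was added to each deposited start, and a shared base between sites of both lists (at least 1) made them overlapping. Shares carry Wilson intervals at a confidence level of 95%. No test was run, because the lists carry no replicate values. The 20 role lists held 712 symbols, of which 709 matched a RefSeq gene, and they covered 183 of the members. RefSeq GRCm38.p6 gave gene spans, strands and start windows.

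Genes were named if they were among the 20 with the highest lower fold at an overlapping site, the 10 with the most overlapping sites, up to 4 per role list or KEGG class, the 8 per list with the highest fold in that list alone, the 8 closest and the 8 farthest overlapping pairs with a score of at least 50 in both lists, or the 8 with the most sites. Members of a role list without a site could be named as well. Some genes that the rule names are not reported here.

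Alternatives were a minimum score of 50, the upper 50% of sites by fold or by score, equal numbers of the strongest sites, a reciprocal overlap of 50%, merging of touching sites, stricter annotation of members, and all sites in place of the highest per gene. Leaving out sites outside the RefSeq span of their gene, or inside the span of another gene, was chosen after seeing the data. The overlap step was tested on simulated data. Python 3.11.15, pandas 2.3.3, numpy 2.4.6, scipy 1.17.1 and matplotlib 3.10.9 were used.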

Additional observations from a re-analysis of the deposited data

How the results depend on the processing

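The share of members in both lists, 32.7% with all deposited sites (39.4% of all genes), was 23.7% among the upper 50% of sites by fold (30.7% of all genes), 22.4% among the upper 50% by score (28.4%) and 24.2% with equal numbers of the strongest sites (35.3%). The share with an overlapping site, 22.7% with all sites (27.2% of all genes), was 16.3% among the upper 50% by fold (19.4%). In each of these settings fewer sites entered, and the share stayed below that of all genes. The other settings gave 27.6% to 32.9% in both lists and 18.7% to 22.9% with an overlapping site. The median highest fold per member, 11.5 in list 1 and 10.5 in list 2, was 23.5 (all genes 27.1) and 14.8 (24.4) with scores of at least 50, where weak sites do not enter. Over all sites in place of the highest per gene it was 12.1 in list 1, above the 11.6 of all sites, and 9.41 in list 2, below 11.9.

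No paired analysis was possible because the lists carry no values per library. Unknown depth, folds that repeat across genes and the absence of expression values limit the reading of a fold at 1 site. No replicate was left out, for the same reason.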

Other observations

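Several deposited cellular component terms were more frequent among members than among all genes with a site. Members were chosen by a metabolic term and by this same annotation, so these frequencies describe the choice and are no finding. The most frequent term was cytoplasm, with 100 members (38.5%, against 40.3% of all genes). The Golgi apparatus was named for 52 members (20%, against 7.22% of all genes with a site), the cytosol for 52 (20%, against 7.98%) and the endoplasmic reticulum for 51 (19.6%, against 7.08%). Of the members with the cytosol term, 10 had a site in both lists (19.2%, against 39.9% of all genes with that term), and of those with the Golgi term 19 had one (36.5%, against 38.9%). The nucleus was named for 60 members, of which 22 were in both lists (36.7%, against 42.3%), and polymerase subunits are part of this group. A gene can carry several of these terms, and the differences between compartments were not tested.

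Among the 13 members in the xenobiotic class of KEGG 1 had a site in both lists (7.69%, against 39.4% of all genes) and none had an overlapping site (against 27.2%). The member in both lists was Aldh3b2, an aldehyde dehydrogenase, with 13.1 in list 1 and 2.45 in list 2 at sites 242 bases apart. Members of the amino acid class were in both lists in 15 of 35 cases (42.9%), near the 39.4% of all genes. These differences were not tested. Among them Gadl1, a decarboxylase related to glutamate decarboxylase, had 50.1 in list 1 and 10.82 in list 2 at overlapping sites, and 2 further sites in list 2 of 12.4 and 9.21.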
